A study of Homo sapiens with 12 samples.

Results

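Both control groups of a study on IFI6, an interferon-induced gene, were compared here with each other. OE_control cells had received the control vector of an overexpression experiment and sh_control cells the control of an interference (hairpin) experiment. Neither control is labelled as changing IFI6. All 10925 protein-coding genes whose mean reached 1 FPKM (fragments per kilobase of transcript, scaled to the size of the library) over the 12 libraries of the study were taken, out of 19771 protein-coding genes in the deposited table. ZNF92 lay just inside that limit at a mean of 1.00053 FPKM and AC118754.1 just outside it at 0.999645 FPKM. There were 3 OE_control and 3 sh_control libraries, and the remaining 6 were 3 libraries of cells with the IFI6 overexpression vector (OE_IFI6) and 3 of cells with the IFI6 interference vector (sh_IFI6). TE-1, a human line of oesophageal cancer, was the source of every library, grown in DMEM with serum and taken 48 h after transfection, and total RNA was sequenced. The sources used here do not give the make of the vectors, the insert of the control vector or the target of the control hairpin. The labels give no day or batch of transfection, so the type of vector and anything else that differed between both experiments cannot be told apart. They do not say either that the 3 libraries of a group were separate cultures, so p-values speak only of the spread among these samples, and that spread may be technical.

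Cells that hold misfolded or foreign material raise several sets of genes that are well described. In the heat shock response, the factor HSF1 is released from chaperones and binds heat shock elements in the promoters of chaperone genes such as those of the HSP70 and HSP40 families. In the integrated stress response, kinases such as PERK, GCN2 and PKR phosphorylate the translation factor eIF2, most translation falls, and the factor ATF4 is made and turns on genes of amino acid supply and the factor CHOP (gene DDIT3). Unfolded protein in the endoplasmic reticulum (ER) adds the factors ATF6 and XBP1, which raise ER chaperones, while foreign nucleic acid is known to raise interferon-stimulated genes.

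Depth in reads is not given by the files. A minority of low values lay near whole multiples of a step. Of such steps 30.1 to 34.0 in OE_control and 29.8 to 32.5 in sh_control made up 1 FPKM for 1 kb of transcript. Steps may stand for single fragments, and read totals were not used here. Of low values 28.5% to 29.2% in OE_control and 26.4% to 27.7% in sh_control were within 1% of a whole step, and 10650 to 10832 protein-coding genes in OE_control and 10879 to 10987 in sh_control reached 1 FPKM. Neither range overlapped between the groups, and the part of this in the results was not tested. Summed FPKM of protein-coding genes was 336865 to 357145 in OE_control and 332753 to 334107 in sh_control, and small RNAs took 18.0% to 28.3% of all summed FPKM in OE_control and 23.1% to 26.5% in sh_control. Along principal component 1, with 23.1% of the variance, the OE_control libraries lay at 30.6, 22.2 and 22.3, and the other 9 libraries lay between -11.3 and -5.89. The defining squamous genes KRT5, SOX2 and KRT6A were at 0 FPKM in all 12 libraries, TP63 reached at most 0.332 FPKM, and KRT14 was at 0 in the 6 control libraries (the study's title names a squamous origin). Other members of the same 14-gene squamous and basal list were present: TRIM29 had 38.2 to 40.7 FPKM in OE_control, against 50.9 to 56.0 FPKM in sh_control, and KRT17, ITGA6 and ITGB4 were the other tested members. KRT18, a keratin of simple epithelium, had 385, 355 and 440.2 FPKM in OE_control, against 422, 446 and 454 FPKM in sh_control. It is 1 of 6 general epithelial markers, of which 3 were tested, and EPCAM of that list was at 0 FPKM in all 12 libraries.

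**Figure D1:**
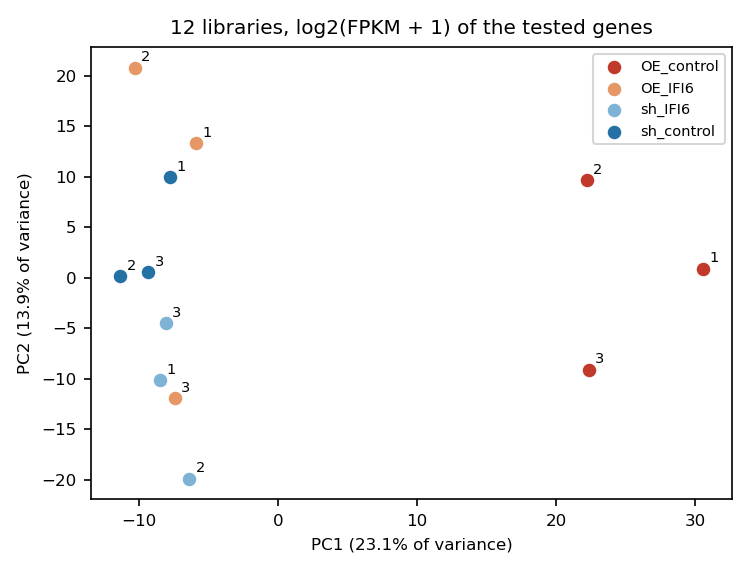
Each point is a library, placed by its first and second principal components of log2(FPKM + 1) over the 10925 tested genes, with the replicate number beside it. The 3 OE_control libraries lie at 22.2 to 30.6 on the first component, and the other 9 libraries, sh_control among them, lie between -11.3 and -5.89.

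IFI6 itself did not differ between the controls beyond the spread of their libraries. Its values were 27.3, 17.9 and 28.8 FPKM in OE_control, against 24.9, 24.1 and 21.2 FPKM in sh_control, and the groups overlapped. The mean was 24.7 ± 5.92 FPKM in OE_control and 23.4 ± 1.97 FPKM in sh_control (SD, n = 3 each; log2 fold change 0.05, SE 0.17, limma adjusted p = 0.886). The two-sided exact permutation p was 0.9, where 0.1 is the smallest that 3 against 3 libraries allow. The sign turned when OE_control 1, OE_control 3 or sh_control 3 was left out (log2 -0.04, -0.07 and -0.02). IFI6 (ENSG00000126709) lies on chromosome 1, 27666064 to 27672198, in the deposited coordinates, whose genome build no source used here gives.

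Elsewhere the controls did differ: 822 of the 10925 genes passed between them (7.52%, limma with Benjamini-Hochberg adjusted p under 0.05). Of these, 300 were higher in OE_control (2.75%) and 522 were lower (4.78%). The median log2 fold change over all tested genes was -0.09, and 4156 genes had a value above 0. The changes of 98 genes, 46 higher and 52 lower, reached 1 on the log2 scale. Fold changes are OE_control minus sh_control on the log2(FPKM + 1) scale, which understates the change of genes near 1 FPKM. Libraries of both groups did not overlap for 1104 genes higher (10.1%) and 2217 genes lower (20.3%) in OE_control. In the comparison of OE_IFI6 with sh_IFI6, which uses the same 2 vector types and shares no library with the controls, 4 genes passed (0.0366%): IFI6 and RBMXL1 were higher, and PTBP1 and FAM219A were lower. None of those 4 was among the 822, and the difference between both comparisons was not tested.

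The number of calls was lower with any 1 library left out, which also leaves fewer libraries in the fit. It was 512 without OE_control 1, 543 without OE_control 3, 440 without sh_control 1, 319 without sh_control 2 and 405 without sh_control 3, and 769 without OE_control 2. The split into higher and lower calls moved with the scaling: median-of-ratios scaling gave 480 higher and 358 lower, quantile normalization 378 and 330, and correcting for GC content and length 747 and 567. Of the 167 genes named by rule that passed, 0 turned direction under any setting tried. A threshold of 1 on the log2 fold change aside, 86 lost no call, of which 79 had a value in every setting and 7 did not, having been below a filter.

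**Figure D2:**
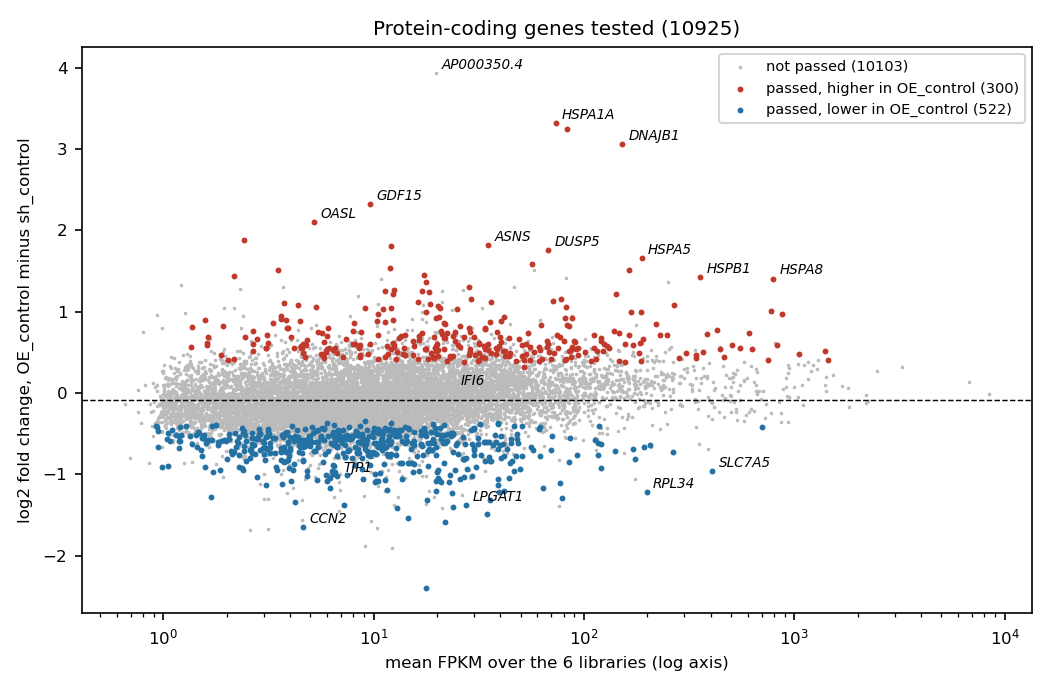
Each point is one of the 10925 genes, with its mean FPKM over the 6 control libraries on a log axis and its log2 fold change (OE_control minus sh_control) on the vertical axis. Red points (300 genes) passed and were higher in OE_control, blue points (522 genes) passed and were lower, and the dashed line is the median of -0.09. HSPA1A and DNAJB1 stand at 3.32 and 3.06.

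The highest point in the plot of fold change against level, AP000350.4, did not pass (log2 fold change 3.94, adjusted p = 0.24). It had 63.6, 55.0 and 0 FPKM in OE_control and was listed at 0 in all 3 sh_control libraries. It was listed at 0 in 1 OE_IFI6 and 1 sh_IFI6 library too, and was chosen for mention after its values were seen.

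Heat shock genes held the largest rises. Of the 10925 genes, the highest fold changes that passed belonged to HSPA1A and HSPA1B, the stress-inducible HSP70 chaperones, and to DNAJB1, the HSP40 co-chaperone that delivers substrates to them. HSPA1A (ENSG00000204389, chromosome 6, 31815464 to 31817946) had 83.2, 139 and 181 FPKM in OE_control, against 9.58, 12.3 and 14.4 FPKM in sh_control. The groups did not overlap, and OE_control 1 was the lowest of its group (log2 fold change 3.32, SE 0.26, adjusted p = 3.17e-05). HSPA1B had 95.6, 156 and 205 FPKM in OE_control, against 11.5, 15.4 and 16.7 FPKM in sh_control (log2 fold change 3.25, SE 0.23, adjusted p = 2.1e-05). Both genes are near-identical copies and how reads were split between them is not known, so they are best read as a pair. DNAJB1 (ENSG00000132002, chromosome 19, 14514769 to 14565978) had 242, 285 and 289 FPKM in OE_control, against 30.1, 32.4 and 32.2 FPKM in sh_control, with little spread in either group (log2 fold change 3.06, SE 0.10, adjusted p = 1.3e-08).

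Promoters of 3 of these chaperone genes are shown because each carries the letters of a heat shock element, in capitals. They run 5′ to 3′ along the gene's strand, 250 bases before to 50 after the start, from RefSeq on GRCh38.p14: HSPA1A at chr6:31815293-31815592 (plus strand), HSPA8 at chr11:123062087-123062386 (minus strand) and SERPINH1 at chr11:75562003-75562302 (plus strand). The element was searched as TTCNNGAA or GAANNTTC, which together cover both strands.
HSPA1A: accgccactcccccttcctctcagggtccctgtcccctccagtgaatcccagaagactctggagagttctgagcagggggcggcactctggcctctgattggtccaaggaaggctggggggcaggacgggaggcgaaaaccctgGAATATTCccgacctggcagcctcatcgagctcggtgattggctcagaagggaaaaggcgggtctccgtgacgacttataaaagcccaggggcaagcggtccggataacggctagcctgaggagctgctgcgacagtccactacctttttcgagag
HSPA8: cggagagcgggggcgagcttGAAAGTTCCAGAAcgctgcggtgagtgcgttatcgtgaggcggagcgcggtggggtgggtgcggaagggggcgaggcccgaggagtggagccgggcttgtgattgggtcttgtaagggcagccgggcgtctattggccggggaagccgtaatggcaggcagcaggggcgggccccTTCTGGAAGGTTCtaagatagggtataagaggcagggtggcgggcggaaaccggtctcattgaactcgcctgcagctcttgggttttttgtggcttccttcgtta
SERPINH1: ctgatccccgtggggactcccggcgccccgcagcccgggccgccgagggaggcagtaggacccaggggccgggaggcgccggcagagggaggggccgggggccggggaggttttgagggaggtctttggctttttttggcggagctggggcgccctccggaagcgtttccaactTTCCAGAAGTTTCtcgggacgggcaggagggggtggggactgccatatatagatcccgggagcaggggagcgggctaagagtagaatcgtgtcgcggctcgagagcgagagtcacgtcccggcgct
In HSPA1A the match starts 106 bases before the start of the gene. In HSPA8, which has 4 matches in 2 clusters, the first starts 230 bases before it. In SERPINH1 2 overlapping matches begin 76 and 71 bases before it. The longer form with 3 units adds a further TTC or GAA after 2 free bases and so contains the shorter one. It is present in HSPA8 and SERPINH1 and in 0.487% of all 27305 promoters of that length. The 2-unit form is common. With the first promoter the table lists for each of 27305 genes, 13.7% of all promoters hold it, 9.83% of the 8936 promoters matched to tested genes, 14.3% of the 238 matched to genes that rose and 9.62% of the 426 matched to genes that fell. Within the heat shock lists 7 of 15 rising members with a promoter hold it, and 7 of 36 other members. With any promoter that the table lists for a gene, a choice made after seeing the data, these were 10 of 15 (DNAJB1, DNAJB4 and HSP90AB1 in addition) and 11 of 36, beside 13.6% of tested genes. A match is a run of letters and not a shown binding site, and where the letters are missing, as in the window of HSPH1, nothing follows about the factor.

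Among HSP70 chaperones and their exchange factors, 4 of 17 tested members rose and 1 fell, with a median of -0.11 beside -0.09 for all genes (-0.09 to 0.08 with 1 library left out, and above 0 with no filter, with a minimum of 5 FPKM, with quantile normalization and with the GC and length correction). HSPA8, the constitutive HSP70, had 1324, 972 and 1161 FPKM in OE_control, against 435, 419.8 and 436 FPKM in sh_control (log2 fold change 1.41, SE 0.20, adjusted p = 0.00209). Its leading transcript took 67.5% of the gene's FPKM in OE_control and 39.3% in sh_control. HSPH1, an HSP110 exchange factor, had 21.2, 32.8 and 24.6 FPKM in OE_control, against 8.84, 8.52 and 10.9 FPKM in sh_control (log2 fold change 1.37, SE 0.24, adjusted p = 0.00571). The member that fell was BAG1, a nucleotide exchange factor, at 35.1, 31.3 and 37.9 FPKM in OE_control, against 50.5, 66.7 and 63.7 FPKM in sh_control (log2 -0.77, adjusted p = 0.00701). BAG3, a co-chaperone of HSP70 that is itself known as an HSF1 target, averaged 10.0 ± 0.931 FPKM in OE_control and 6.40 ± 0.137 FPKM in sh_control (SD, n = 3 each) and did not pass (log2 0.57, adjusted p = 0.16), although its libraries did not overlap.

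Of 15 tested cytosolic HSP40 co-chaperones, 4 rose and 0 fell (median 0.28): DNAJB1, DNAJB4 (log2 1.13), DNAJA1 (0.62) and DNAJB2 (0.70). The last lost its call when any 1 of the 6 libraries was left out. Of 14 members of the HSP90 group, 4 rose and 0 fell (median 0.43). FKBP4, an HSP90 co-chaperone, had 194, 186 and 189 FPKM in OE_control, against 123, 124 and 125 FPKM in sh_control (log2 0.61, adjusted p = 0.00716). The others were AHSA1, the activator of the HSP90 ATPase (0.69), the co-chaperone PTGES3 (1.22) and the constitutive chaperone HSP90AB1 (0.59). The count was 1 without sh_control 1 or sh_control 2 and 2 without sh_control 3. HSP90AA1, the inducible HSP90, had 442, 498 and 171 FPKM in OE_control, against 124, 129.6 and 133 FPKM in sh_control, so that OE_control 3 lay close to sh_control, and did not pass (log2 fold change 1.37, SE 0.46, adjusted p = 0.0921).

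Of 12 small heat shock and other heat shock genes, 5 rose and 0 fell (median 0.47). HSPB1, the small chaperone HSP27, had 511, 476 and 580.0 FPKM in OE_control, against 171, 209 and 200.3 FPKM in sh_control (log2 fold change 1.43, SE 0.13, adjusted p = 8.18e-05). SERPINH1, the collagen chaperone HSP47 whose promoter is printed above, had 112, 100 and 122 FPKM in OE_control, against 49.1, 57.3 and 52.0 FPKM in sh_control (log2 1.06, adjusted p = 0.000875). UBB, a polyubiquitin gene, rose by 0.56, and TCP1, a chaperonin subunit, by 0.57. Of this group 3 rose without OE_control 1, sh_control 1 or sh_control 2. Of 13 other tested chaperonin and prefoldin subunits, a list that does not hold TCP1, 2 rose and 1 fell (median 0.02, which was below 0 with quantile normalization), and 0 rose or fell without sh_control 2. Of 17 mitochondrial chaperones and proteases 1 rose (5.88%, beside 2.75% of all tested genes). It was the chaperonin HSPD1, at 479.8 to 589 FPKM in OE_control, against 308 to 325 FPKM in sh_control (log2 0.77, adjusted p = 0.0016). HSF1, the factor that drives heat shock genes, had 16.2, 17.6 and 17.3 FPKM in OE_control, against 14.1, 17.3 and 17.3 FPKM in sh_control and did not pass (log2 0.07, adjusted p = 0.772).

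In the integrated stress response, DDIT3 and 8 of 25 other targets of ATF4 and CHOP rose. DDIT3 (ENSG00000175197, chromosome 12, 57488081 to 57523557), which encodes CHOP, had 17.3, 19.1 and 21.8 FPKM in OE_control, against 5.25, 4.38 and 4.78 FPKM in sh_control (log2 fold change 1.81, SE 0.14, adjusted p = 2.94e-05). Of 19 tested regulators 4 rose and 0 fell (median 0.03). Besides DDIT3 these were PPP1R15A, the eIF2 phosphatase subunit GADD34 (log2 1.26), TRIB3, a pseudokinase that binds ATF4 (0.74), and ATF4 itself. ATF4 had 329.9, 312 and 332 FPKM in OE_control, against 236, 256 and 229 FPKM in sh_control (log2 fold change 0.43, SE 0.10, adjusted p = 0.0222), a small rise that did not pass with the 6 libraries fitted alone, with quantile normalization, or without OE_control 1, OE_control 3 or any 1 sh_control library. ATF3, a partner in the same response, had 9.05, 45.2 and 19.0 FPKM in OE_control, against 7.50, 8.39 and 17.7 FPKM in sh_control, with overlapping groups and a wide spread (log2 0.88, adjusted p = 0.421).

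Of 25 other tested targets of ATF4 and CHOP, 8 rose and 1 fell (median 0.23), and 0 fell when any 1 of the 6 libraries was left out. GDF15, a stress cytokine of the TGF-beta family, had 17.2, 15.9 and 16.7 FPKM in OE_control, against 2.39, 2.34 and 2.86 FPKM in sh_control (log2 fold change 2.32, SE 0.20, adjusted p = 6.38e-05). ASNS, asparagine synthetase, had 58.4, 55.3 and 51.6 FPKM in OE_control, against 17.5, 14.0 and 13.3 FPKM in sh_control (log2 fold change 1.82, SE 0.14, adjusted p = 3.2e-05). The groups did not overlap for either gene. The transcript that led ASNS in the sum of both groups, ASNS-209, took 58.4% of the gene in OE_control and 0% in sh_control, so the gene's rise came with a change in how the authors' software assigned its reads to transcripts. CHAC1, which degrades glutathione, had 5.86, 5.73 and 4.86 FPKM in OE_control, against 1.87, 2.20 and 1.93 FPKM in sh_control (log2 1.11, adjusted p = 0.000639). SESN2, an inhibitor of mTORC1 signalling, had 12.5, 12.0 and 13.3 FPKM in OE_control, against 5.63, 5.78 and 5.32 FPKM in sh_control (log2 1.05, adjusted p = 0.000238).

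Promoters of ASNS and CHAC1 hold the C/EBP-ATF response element, the composite site that ATF4 is known to bind, and are shown with it in capitals. They are ASNS at chr7:97872359-97872658 (minus strand) and CHAC1 at chr15:40953221-40953520 (plus strand), read as above.
ASNS: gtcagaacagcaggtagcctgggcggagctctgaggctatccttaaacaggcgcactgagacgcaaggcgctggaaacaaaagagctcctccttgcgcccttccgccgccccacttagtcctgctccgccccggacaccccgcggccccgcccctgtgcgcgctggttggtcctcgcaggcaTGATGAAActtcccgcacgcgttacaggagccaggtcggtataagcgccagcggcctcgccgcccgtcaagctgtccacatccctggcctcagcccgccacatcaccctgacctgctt
CHAC1: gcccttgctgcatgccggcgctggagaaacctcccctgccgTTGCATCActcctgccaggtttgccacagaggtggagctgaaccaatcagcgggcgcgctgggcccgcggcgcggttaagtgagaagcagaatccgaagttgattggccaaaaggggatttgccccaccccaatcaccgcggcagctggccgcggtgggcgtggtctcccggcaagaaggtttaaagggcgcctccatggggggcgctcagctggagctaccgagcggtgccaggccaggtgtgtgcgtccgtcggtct
The element was searched as TGATGNAA or TTNCATCA, on both strands. It starts 68 bases before the start in ASNS and 209 bases before it in CHAC1. Of 20 rising members of the ATF4-related lists with a promoter 5 hold it, and of 52 others 10. It is present in 3.67% of all 27305 promoters, in 1.56% of those of tested genes, in 3.36% of those of genes that rose and in 1.17% of those of genes that fell. DDIT3, TRIB3, SESN2 and GDF15 have no such letters in this window.

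Genes of amino acid supply moved with them in part. Of 19 cytosolic aminoacyl-tRNA synthetases 4 rose and 0 fell (median 0.16): GARS (log2 0.84), WARS (0.75), SARS (0.55) and AARS (0.40). The rises numbered 3 to 5 with 1 library left out. AARS lost its call with quantile normalization, the 6 libraries fitted alone and the replicate block. It lost it too when any 1 library other than OE_control 1 was left out. CARS, cysteinyl-tRNA synthetase, rose too but was counted in another of the ATF4-related lists, and was chosen for mention after the results were seen. GARS, glycyl-tRNA synthetase, had 97.2 to 116 FPKM in OE_control, against 54.4 to 63.5 FPKM in sh_control (adjusted p = 0.000847). Of 13 genes of serine, glycine, one-carbon and proline synthesis 3 rose and 1 fell. The risers were PSAT1 (0.75), PHGDH (0.71) and PSPH (0.58), the 3 enzymes of serine synthesis. Of 15 amino acid transporters 3 rose and 2 fell, with a median of -0.13. SLC1A3 (0.76), SLC1A5 (0.59) and SLC1A4 (0.45) rose, and of these 3 calls 1 was left without OE_control 2, OE_control 3, sh_control 1 or sh_control 2. SLC7A5, the light chain of the large neutral amino acid transporter and itself a known ATF4 target, went the other way, with 244, 274 and 314 FPKM in OE_control, against 518, 570.1 and 523 FPKM in sh_control (log2 fold change -0.96, SE 0.12, adjusted p = 0.00078). SLC7A1, a transporter of cationic amino acids, fell as well (-0.55), a call lost with median-of-ratios scaling, quantile normalization, the GC and length correction, the 6 libraries fitted alone and the replicate block, and when any 1 library other than OE_control 3 was left out.

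Chaperones of the endoplasmic reticulum rose at HSPA5 above the rest. HSPA5 (ENSG00000044574, chromosome 9, 125234853 to 125241343), the ER-resident HSP70 known as BiP, had 178, 349 and 340.2 FPKM in OE_control, against 70.2, 92.6 and 99.3 FPKM in sh_control (log2 fold change 1.67, SE 0.22, adjusted p = 0.00127). As for HSPA1A, OE_control 1 held the lowest of the 3 OE_control values, and it was still above every sh_control library. Of 25 ER chaperones and folding enzymes 4 rose and 0 fell (median 0.26). CALR, the lectin chaperone calreticulin, had 1173, 1244 and 1047 FPKM in OE_control, against 627, 495 and 645 FPKM in sh_control (log2 0.98, adjusted p = 0.0014), and MANF, a secreted ER stress protein, and PDIA4, a disulphide isomerase, rose by 0.94 and 0.74. HSP90B1, the ER form of HSP90, had 258 to 344 FPKM in OE_control, against 195 to 204 FPKM in sh_control and did not pass (adjusted p = 0.0693).

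The promoter of HSPA5, at chr9:125241294-125241593 (minus strand), is shown because it holds the full ER stress response element, in capitals.
HSPA5: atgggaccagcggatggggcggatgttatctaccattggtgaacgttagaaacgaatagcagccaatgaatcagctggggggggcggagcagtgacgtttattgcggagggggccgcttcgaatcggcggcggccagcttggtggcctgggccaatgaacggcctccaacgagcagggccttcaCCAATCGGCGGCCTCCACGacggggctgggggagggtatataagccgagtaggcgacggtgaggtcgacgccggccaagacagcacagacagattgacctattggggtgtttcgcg
This element, searched on both strands as CCAAT, 9 free bases and CCACG, starts 66 bases before the start. It is present in 22 of the 27305 promoters (0.0806%). Of the genes that rose 2 hold it, HSPA5 and CALR, out of 238 with a promoter. The element is found in 0.134% of the promoters of tested genes, in 0.840% of those of genes that rose and in 0.235% of those of genes that fell. It is present too in CANX, CRELD2, HSP90B1 and XBP1 of the ER lists, which did not pass. Outside the ER lists, 1 interferon-stimulated gene that did not rise holds it as well.

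Of 26 sensors of unfolded protein and genes of the degradation machinery 1 rose (3.85%) and 2 fell (7.69%), and the median was 0.02. Over all tested genes 2.75% rose and 4.78% fell. The riser was HERPUD1, a membrane component of ER-associated degradation, with 179, 259 and 297 FPKM in OE_control, against 77.2, 77.7 and 95.1 FPKM in sh_control (log2 fold change 1.52, SE 0.17, adjusted p = 0.000442). EDEM3, a mannosidase, fell by 0.68 on the log2 scale. The count of falls was 1 without OE_control 1, OE_control 3, sh_control 1 or sh_control 2, and 0 without sh_control 3. XBP1 averaged 41.4 ± 2.60 FPKM in OE_control and 30.8 ± 2.36 FPKM in sh_control (SD, n = 3 each) and EIF2AK3, which encodes PERK, 18.0 ± 3.94 FPKM in OE_control and 12.8 ± 0.365 FPKM in sh_control; neither passed (adjusted p = 0.0973 and 0.0924). Among NRF2 and KEAP1 with their targets, 0 of 23 passed by limma, 4 had an unadjusted p under 0.05, and 2 passed with the GC and length correction. HMOX1, haem oxygenase, had 10.7, 14.5 and 19.2 FPKM in OE_control, against 8.79, 10.3 and 9.67 FPKM in sh_control (log2 0.55, adjusted p = 0.109). Of 4 metallothionein and zinc genes 0 passed by limma, and 0 had an unadjusted p under 0.05. MT2A, a metallothionein, had 3.46 to 7.38 FPKM in OE_control, against 5.61 to 8.69 FPKM in sh_control (log2 -0.29, adjusted p = 0.486).

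**Figure D3:**
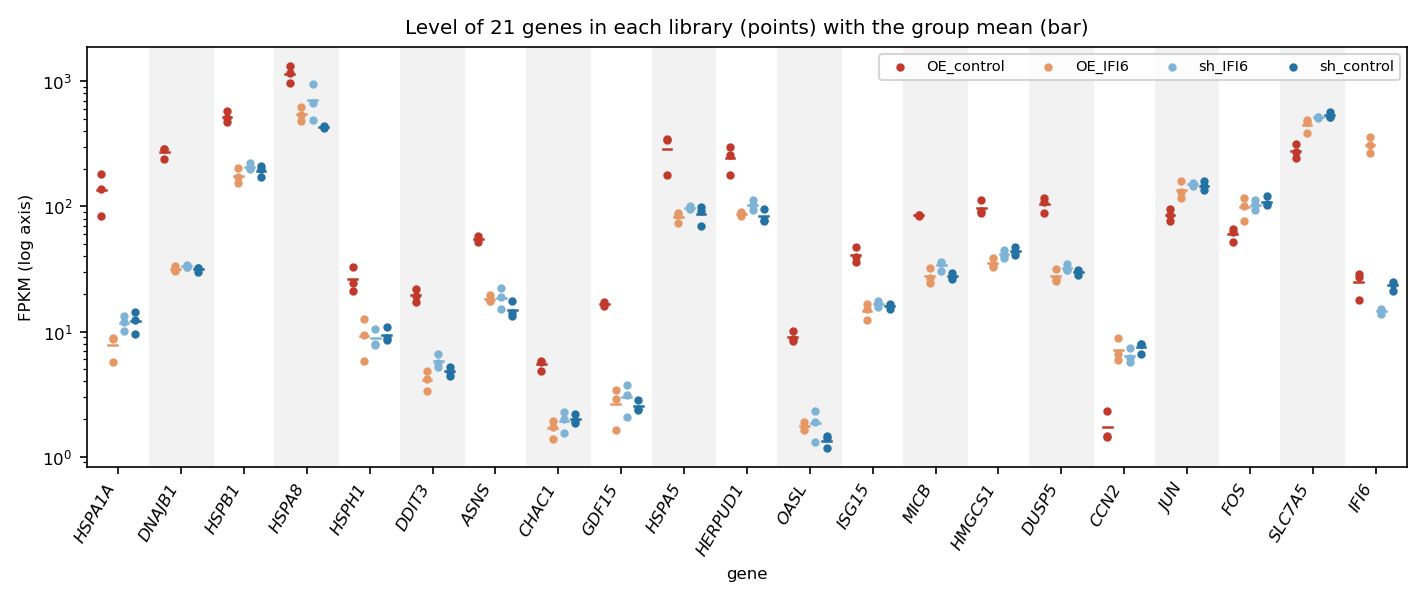
Each point is a library and each short bar the mean of 3, on a log axis of FPKM, for 21 genes in OE_control, OE_IFI6, sh_IFI6 and sh_control, left to right within a gene. From HSPA1A to DUSP5 the OE_control points lie above those of sh_control, from CCN2 to SLC7A5 they lie below, and for IFI6 they overlap.

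Of interferon-stimulated genes other than IFI6, OASL had the largest rise. Of 38 tested members 8 rose and 1 fell (median 0.12). OASL, a member of the oligoadenylate synthetase family, had 8.75, 10.1 and 8.44 FPKM in OE_control, against 1.46, 1.18 and 1.40 FPKM in sh_control (log2 fold change 2.10, SE 0.14, adjusted p = 1.5e-05). IFI44 had 4.69, 6.67 and 5.70 FPKM in OE_control, against 1.44, 1.40 and 1.16 FPKM in sh_control (log2 fold change 1.51, SE 0.14, adjusted p = 0.000158), and ISG15, a ubiquitin-like modifier, had 39.3, 36.1 and 47.7 FPKM in OE_control, against 16.7, 15.2 and 15.9 FPKM in sh_control (log2 fold change 1.30, SE 0.13, adjusted p = 0.000243). For these 3 genes every OE_control library lay above every sh_control library. The RNA helicase gene DDX60 (0.91), BST2, which encodes the virus-tethering protein tetherin (0.59), IFIT2 (0.75) and IFIT1 (0.58) rose less. IFIT1 lost its call without OE_control 1 or any 1 sh_control library. The count of rises was 4 without sh_control 1, 3 without sh_control 2 and 5 without sh_control 3. The member that fell was TRIM14, an adaptor of antiviral signalling (-0.50), and its call was lost without OE_control 1, sh_control 2 or sh_control 3.

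Promoters of ISG15, at chr1:1013247-1013546 (plus strand), and IFI44, at chr1:78649539-78649838 (plus strand), hold an interferon-stimulated response element, in capitals.
ISG15: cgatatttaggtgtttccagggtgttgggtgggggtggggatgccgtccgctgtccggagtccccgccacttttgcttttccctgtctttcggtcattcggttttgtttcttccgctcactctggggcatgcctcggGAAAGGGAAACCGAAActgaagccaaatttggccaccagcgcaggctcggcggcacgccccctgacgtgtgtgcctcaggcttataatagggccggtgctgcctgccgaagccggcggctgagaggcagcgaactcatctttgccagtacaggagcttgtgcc
IFI44: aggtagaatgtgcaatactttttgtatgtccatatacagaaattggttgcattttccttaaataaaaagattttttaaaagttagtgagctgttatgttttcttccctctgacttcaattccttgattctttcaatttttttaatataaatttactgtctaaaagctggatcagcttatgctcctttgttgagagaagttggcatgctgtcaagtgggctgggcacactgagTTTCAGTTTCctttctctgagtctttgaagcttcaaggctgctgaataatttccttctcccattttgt
The element was searched on both strands as GAAA, 2 free bases and GAAA. ISG15 has 2 overlapping matches that start 113 and 107 bases before the start, and IFI44 has 1 that starts 18 bases before it. It is found in 3.65% of all 27305 promoters, in 2.63% of those of tested genes, in 4.62% of those of genes that rose and in 0.939% of those of genes that fell. Within the interferon list it stands in 6 of the 6 rising members with a promoter, and in 15 of the 25 other members with one.

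Cytosolic nucleic acid sensors and adaptors held 0 calls among 11 tested by limma, with 3 at an unadjusted p under 0.05. CGAS, the cytosolic DNA sensor, had 21.6 to 24.1 FPKM in OE_control, against 16.7 to 18.4 FPKM in sh_control, the smallest p of that list (adjusted p = 0.0524), and 2 of the 11 passed with median-of-ratios scaling. Of 4 tested ligands of NKG2D, a receptor by which lymphocytes see stressed cells, 2 rose. MICB had 85.1, 86.1 and 84.3 FPKM in OE_control, against 26.4, 29.6 and 27.5 FPKM in sh_control (log2 fold change 1.58, SE 0.12, adjusted p = 2.39e-05), and its relative MICA had 52.8, 45.9 and 57.2 FPKM in OE_control, against 38.5, 37.3 and 34.2 FPKM in sh_control (log2 0.49, adjusted p = 0.0315). The call of MICA was lost with the 6 libraries fitted alone and without OE_control 1, OE_control 3 or any 1 sh_control library. Of 13 genes of MHC class I and peptide loading 2 rose, B2M, the invariant light chain, among them (0.48), and 0 or 1 did when 1 library was left out (1 without OE_control 3 or sh_control 1, 0 without any of the other 4).

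Cholesterol synthesis rose in 8 of 30 tested members and 1 fell (median 0.22). HMGCS1, HMG-CoA synthase, had 88.1, 113 and 92.3 FPKM in OE_control, against 40.5, 47.6 and 43.5 FPKM in sh_control (log2 fold change 1.13, SE 0.12, adjusted p = 0.000375). MSMO1, a sterol oxidase, had 346, 423 and 317 FPKM in OE_control, against 196, 148 and 167 FPKM in sh_control (log2 fold change 1.08, SE 0.14, adjusted p = 0.000847). For both enzymes every OE_control library was above every sh_control library. IDI1, HSD17B7 and FDFT1 rose by 0.77, 0.75 and 0.66. The member that fell was PMVK, a kinase of mevalonate synthesis (-0.70). The list held 0 falls with quantile normalization and with a minimum of 5 FPKM. With 1 library left out it held 0 to 1 falls and 6 to 9 rises. Of the 5 rising members with a matched promoter, 0 held the sterol regulatory element searched (TCACNCCAC or GTGGNGTGA, both strands), which 1.15% of all promoters hold. With 5 promoters and so rare an element, a count of 0 says little. The element is found in 1.05% of the promoters of tested genes, in 2.94% of those of genes that rose and in 0.704% of those of genes that fell. Fatty acid synthesis had 1 riser of 16 (6.25%, beside 2.75% of all tested genes), ACSS2, an acetyl-CoA synthetase (log2 0.53).

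**Figure D4:**
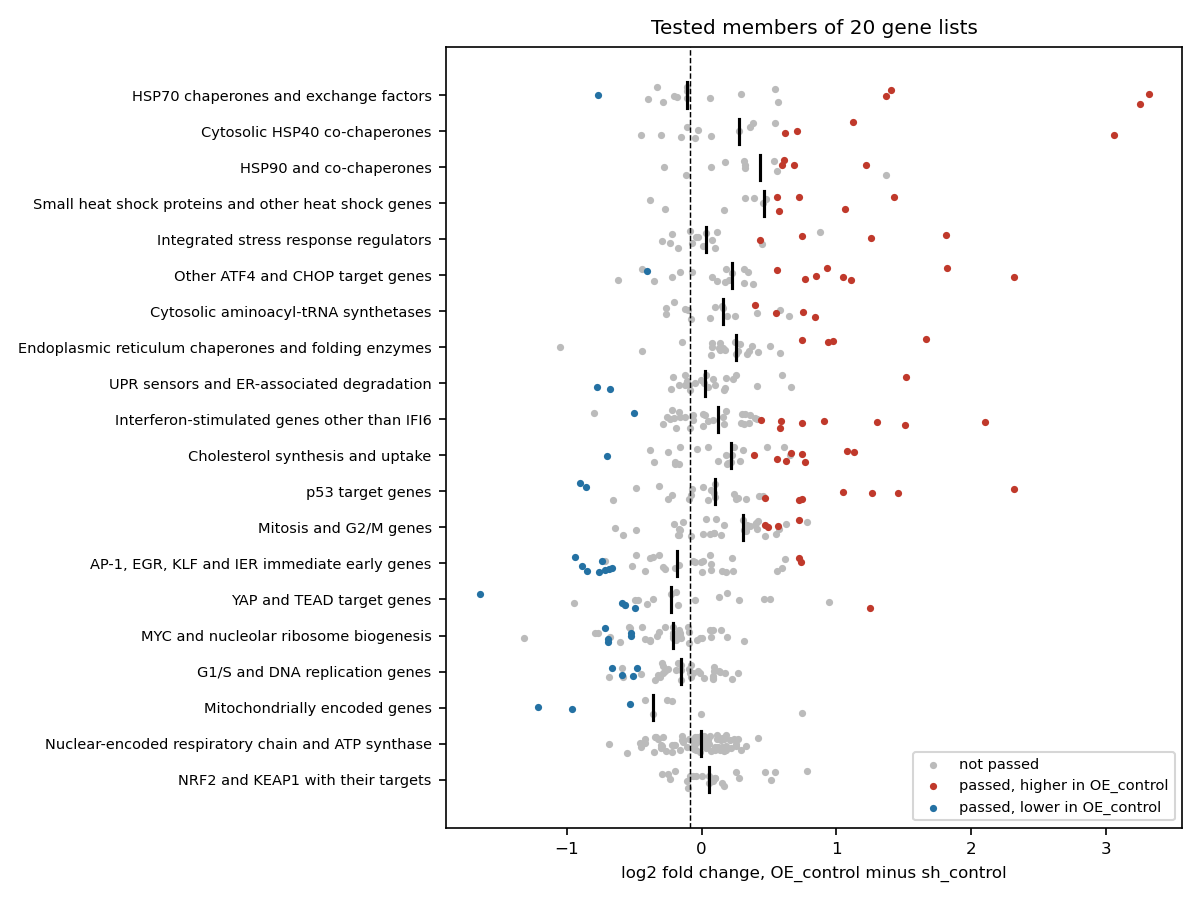
Each point is a tested member of one of 20 gene lists, placed by its log2 fold change (OE_control minus sh_control); red and blue points passed, black bars are list medians and the dashed line is the median of all genes, -0.09. The heat shock lists reach 3.32, and the immediate early, YAP, ribosome biogenesis, replication and mitochondrially encoded lists have medians between -0.36 and -0.15.

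Of 36 tested immediate early genes, induced within minutes of a signal and many of them transcription factors, 8 fell and 2 rose (median -0.18). JUN, a subunit of AP-1, had 85.9, 76.7 and 94.8 FPKM in OE_control, against 135, 158 and 145 FPKM in sh_control (log2 fold change -0.76, SE 0.12, adjusted p = 0.00428), and its partner FOS had 52.1, 65.7 and 62.7 FPKM in OE_control, against 105, 121 and 102 FPKM in sh_control (log2 fold change -0.85, SE 0.15, adjusted p = 0.00736). JUNB, KLF2 and ID1 fell by 0.69, 0.89 and 0.66, and EGR1 by 0.94 at levels of 0.882 to 1.04 FPKM in OE_control, against 2.14 to 3.20 FPKM in sh_control. The call of EGR1 was lost when any 1 library other than sh_control 2 was left out. The members that rose were IER3 (log2 0.74), an early stress gene, and PHLDA1 (0.72).

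DUSP5, a nuclear phosphatase of ERK, had 88.5, 108 and 117 FPKM in OE_control, against 28.3, 31.0 and 30.8 FPKM in sh_control (log2 fold change 1.76, SE 0.12, adjusted p = 2.1e-05). DUSP1, which acts on p38 and JNK, had 295, 321 and 313 FPKM in OE_control, against 194, 185 and 184 FPKM in sh_control (log2 fold change 0.72, SE 0.10, adjusted p = 0.00121), and DUSP2 moved against both, with 81.5, 78.3 and 88.9 FPKM in OE_control, against 157, 166 and 148 FPKM in sh_control (log2 fold change -0.91, SE 0.11, adjusted p = 0.000643). Of 17 tested phosphatases and feedback genes 3 rose, the last being the ETS factor ETV4 (0.49), and 1 fell (median 0.29). The rises numbered 5 with median-of-ratios scaling, 6 with quantile normalization and 9 with the GC and length correction. ETV4 lost its call with the 6 libraries fitted alone and without OE_control 1, OE_control 3, sh_control 1 or sh_control 2. ERRFI1, a feedback inhibitor of EGFR, rose as well (1.15). In the p38 and stress kinase pathway 0 of 17 rose and 2 fell. MAPKAPK2, the kinase that p38 activates and that phosphorylates HSPB1, had 16.8, 17.4 and 18.8 FPKM in OE_control, against 50.7, 52.6 and 50.2 FPKM in sh_control (log2 fold change -1.48, SE 0.10, adjusted p = 1.5e-05), among the largest falls of all, and MAP2K4, a kinase of JNK, fell by 0.53. Of both calls 1 was left without OE_control 3 or any 1 sh_control library.

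Targets of p53 moved both ways: 7 of 29 tested members rose and 2 fell (median 0.10). PMAIP1, the BH3-only protein NOXA, had 25.9, 27.8 and 23.7 FPKM in OE_control, against 9.15, 8.45 and 8.66 FPKM in sh_control (log2 fold change 1.46, SE 0.21, adjusted p = 0.00213). GDF15 and SESN2, which ATF4 targets include too, were 2 of the 7, and PHLDA3, an inhibitor of AKT, rose by 1.27. The count was 4 without sh_control 1. CDKN1A, the cell cycle inhibitor p21, had 99.0, 47.4 and 102 FPKM in OE_control, against 54.7, 60.1 and 59.0 FPKM in sh_control and MDM2, the p53 ligase, had 10.1, 11.2 and 6.29 FPKM in OE_control, against 10.2, 9.98 and 8.32 FPKM in sh_control; the groups overlapped for both, and neither passed (adjusted p = 0.394 and 0.866). In the BCL2 family BAK1, a pore former, rose with PMAIP1 (0.70), and BNIP3L, a mitophagy receptor, BOK and BCL2 fell by 1.08, 0.78 and 0.39; the last lost its call in 11 of the other settings tried.

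Of 41 genes of MYC and ribosome biogenesis 0 rose and 5 fell (median -0.21). RRP1B and NOP16, nucleolar proteins, fell by 0.70 and 0.72, and NCL, nucleolin, POLR1A, the large subunit of RNA polymerase I, and ODC1, the first enzyme of polyamine synthesis, fell by 0.70, 0.53 and 0.52. This count was 2 without OE_control 1 or sh_control 3, 3 without OE_control 3 and 1 without sh_control 2. MYC had 36.9, 62.0 and 17.7 FPKM in OE_control, against 117, 40.5 and 36.3 FPKM in sh_control, with overlapping groups (adjusted p = 0.509). Of 39 genes of the G1/S transition and replication 0 rose and 4 fell (CCND1, CCNE1, MCM5 and GINS2, median -0.15), and 0 to 1 did without OE_control 1, OE_control 3 or any 1 sh_control library. Mitotic genes had the opposite sign of median, 0.31, with 4 of 37 rising (CKS2, UBE2C, PTTG1 and CCNB1). That count was 9 with median-of-ratios scaling, 16 with the GC and length correction, 1 without sh_control 2 and 2 without sh_control 3. MKI67, a proliferation marker, was at 5.22 to 7.83 FPKM in OE_control, against 8.02 to 10.9 FPKM in sh_control (log2 -0.49, adjusted p = 0.0755). In bulk samples, fewer cells in a phase and less RNA per cell cannot be told apart.

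The largest falls with clean separation were in genes of varied function. CCN2, a secreted matrix protein and a known target of YAP, had 1.47, 2.33 and 1.43 FPKM in OE_control, against 7.98, 7.95 and 6.62 FPKM in sh_control (log2 fold change -1.65, SE 0.17, adjusted p = 0.000282). GAS1, a membrane protein linked to growth arrest, had 6.93, 6.80 and 7.21 FPKM in OE_control, against 21.5, 23.6 and 21.6 FPKM in sh_control (log2 fold change -1.54, SE 0.09, adjusted p = 1.15e-05), and LY6K, a surface protein of the Ly6 family, had 10.9, 8.50 and 12.0 FPKM in OE_control, against 30.6, 38.8 and 30.5 FPKM in sh_control (log2 fold change -1.59, SE 0.14, adjusted p = 9.96e-05). No OE_control library of these 3 genes reached the lowest sh_control library. Falls of similar size were those of DPH2, of diphthamide synthesis (log2 -1.41), the adaptor SORBS2 (-1.40), the acyltransferase LPGAT1 (-1.38), the myosin light chain kinase MYLK3 (-1.37), the ubiquitin ligase subunit RMND5A (-1.31) and the dynein light chain DYNLT3 (-1.31). RAB31, a vesicle GTPase, had the largest fall that passed, -2.39, with 4.19, 3.64 and 7.82 FPKM in OE_control, against 31.1, 29.9 and 29.9 FPKM in sh_control, but it spread over 3.87 to 25.4 FPKM in OE_IFI6 and 5.66 to 28.1 FPKM in sh_IFI6 and its call was lost in 8 of the other settings. MEA1 (-1.34) and APOBEC3F, an antiviral deaminase (1.89, higher), were as unsteady, each losing its call in 8 settings.

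YAP and TEAD targets shared the fall of CCN2 in part: 4 of 21 fell and 1 rose (median -0.22), with CRIM1 (-0.59), AJUBA (-0.57) and PTPN14 (-0.49) beside it. The related CCN1 had 12.6 to 20.2 FPKM in OE_control, against 20.6 to 30.6 FPKM in sh_control and did not pass (adjusted p = 0.0885). The riser was NT5E, a surface nucleotidase (1.25). The count of falls was 2 without OE_control 1, OE_control 3 or sh_control 3 and 1 without sh_control 2. Of 18 junction genes 0 rose and 3 fell: TJP1, the tight junction scaffold ZO-1, had 3.42, 4.84 and 4.12 FPKM in OE_control, against 9.14, 9.62 and 9.15 FPKM in sh_control (log2 fold change -1.02, SE 0.14, adjusted p = 0.0014), and the desmosomal DSP and PPL fell by 0.63 and 0.61. The junction falls numbered 1 without OE_control 1 or any 1 sh_control library. The collagen receptor subunit ITGA2 (0.98) and the fibronectin receptor subunit ITGA5 (0.84) rose, while ITGAV (-0.94) and LAMB2 (-0.59) fell; 0 integrins or laminins fell without sh_control 2 and 1 did without sh_control 3.

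Nuclear genes of the respiratory chain and ATP synthase held 0 calls among 72 by limma (median -0.01). Of these 3 had an unadjusted p under 0.05, and 1 passed with median-of-ratios scaling. Of 9 tested genes encoded by mitochondrial DNA 3 fell, MT-CYB, MT-CO2 and MT-CO3 (median -0.36), and MT-CYB, cytochrome b, had 3.89, 3.13 and 4.84 FPKM in OE_control, against 7.72, 10.5 and 7.68 FPKM in sh_control (log2 fold change -0.96, SE 0.18, adjusted p = 0.00941). The calls were 1 without OE_control 2 or any 1 sh_control library. Summed FPKM of all genes encoded there was 713 to 1044 in OE_control and 979 to 1304 in sh_control, with overlap. SLC2A3, the glucose transporter GLUT3, had 1061, 1073 and 962 FPKM in OE_control, against 546, 508 and 488 FPKM in sh_control (log2 fold change 1.0, SE 0.10, adjusted p = 0.000227). HK2, a hexokinase, fell (-0.90), a call lost without OE_control 1, sh_control 1 or sh_control 3. So did EGLN1, the prolyl hydroxylase that marks HIF for degradation, with 37.2, 33.8 and 30.5 FPKM in OE_control, against 68.1, 65.1 and 63.3 FPKM in sh_control (log2 fold change -0.94, SE 0.12, adjusted p = 0.000875), while the hypoxia-inducible ADM rose by 0.85.

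Values in the IFI6 groups are set beside these, with no test, since the choice of genes was made with results on them known. HSPA1A had 5.69 to 8.84 FPKM in OE_IFI6 and 10.1 to 13.2 FPKM in sh_IFI6, DNAJB1 had 30.2 to 33.4 FPKM in OE_IFI6 and 32.7 to 34.0 FPKM in sh_IFI6 and DDIT3 had 3.38 to 4.81 FPKM in OE_IFI6 and 5.20 to 6.61 FPKM in sh_IFI6. HSPA5 had 74.2 to 88.3 FPKM in OE_IFI6 and 94.8 to 101 FPKM in sh_IFI6, OASL had 1.64 to 1.88 FPKM in OE_IFI6 and 1.32 to 2.33 FPKM in sh_IFI6 and CCN2 had 5.90 to 8.90 FPKM in OE_IFI6 and 5.70 to 7.36 FPKM in sh_IFI6. For each of these 6 genes the OE_control values lay outside the range of all 9 other libraries. For PHLDA3 it did not hold: the OE_IFI6 libraries (15.2 to 18.7 FPKM) and 2 of the sh_IFI6 libraries lay near OE_control (17.4 to 19.2 FPKM), above sh_control (5.88 to 7.55 FPKM).

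Calls also varied with the length of transcripts. The leading transcript had a median length of 2337 bases among genes that rose, 3443 among genes that fell and 2723 over all tested genes with a length. Genes were put in 5 groups of equal size by length. Of the shortest (192 to 1403 bases) 2.47% rose and 3.25% fell, with a median log2 fold change of -0.05. Of the longest (4969 to 43816 bases) 0.963% rose and 6.79% fell, with a median of -0.17. HSPA1A and DNAJB1 kept their calls with the correction for GC content and length. Over 5 such groups by GC content the medians lay between -0.11 and -0.07.

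**Figure D5:**
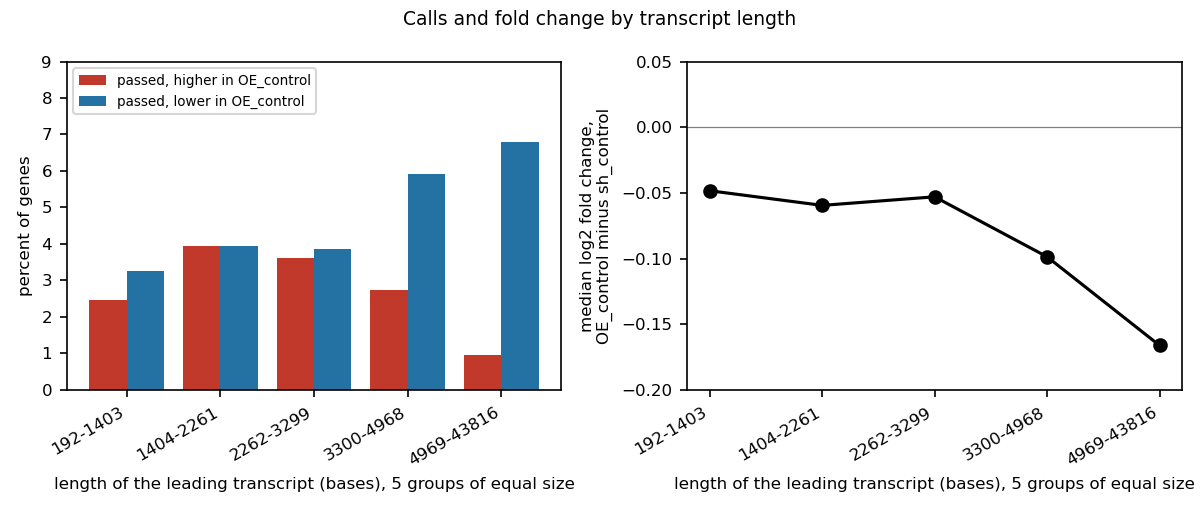
Genes are placed in 5 groups of equal size by the length of their leading transcript. Bars on the left give the percent of genes that passed, higher (red) or lower (blue) in OE_control, and the points on the right the median log2 fold change, which is -0.05 in the shortest and -0.17 in the longest group.

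A gene's value is the sum over its transcripts, and how reads were shared among transcripts differed between the groups for some genes. The median share of FPKM that went to other transcripts was 7.61% among genes that rose, 9.11% among genes that fell and 13.2% over all genes with values. Another transcript led in OE_control than in sh_control for 14%, 14.2% and 19.8% of them. More than 50% of the FPKM went to other transcripts for 16 of 300 genes that rose (5.33%), 23 of 522 that fell (4.41%) and 2.81% of all genes with values. Among the named genes these were ASNS (70.8%), the chaperonin subunit CCT3 (82.1%), the splicing factor HNRNPC (67.2%), KRT17 (56.2%), MEA1 (64.0%), PFDN4 (63.5%) and APOBEC3F (100%), and DCN, which did not pass (53.7%). HSPA1A, HSPA5, JUN and FOS had 0% to 3.89%.

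Markers of other cell types were at low levels. None of the 6 endothelial and 3 erythroid markers was tested, and summed levels of the endothelial list were 0.0636 to 0.140 FPKM in OE_control and 0.0471 to 0.0796 FPKM in sh_control. Those of the 11 immune markers were 4.12 to 4.81 FPKM in OE_control and 2.88 to 3.08 FPKM in sh_control, with CD3E, CD3D, MS4A1 and TYROBP at 0, and 0 of its 3 tested members passed by limma (1 had an unadjusted p under 0.05). CSF1R, the receptor of a macrophage growth factor, was one of them, at 1.59 to 1.62 FPKM in OE_control, against 0.975 to 1.10 FPKM in sh_control (adjusted p = 0.149). Fibroblast markers summed to 10.3 to 11.6 FPKM in OE_control and 10.7 to 13.0 FPKM in sh_control, and 0 of 6 tested passed by limma (1 had an unadjusted p under 0.05). PDGFRA was at 0, as was KDR in the endothelial list, and erythroid markers summed to 0.0971 to 1.40 FPKM in OE_control and 0 to 0.772 FPKM in sh_control. The part of other cell types in the results was not tested. The 14 squamous and basal markers summed to 61.7 to 68.2 FPKM in OE_control and 67.7 to 77.9 FPKM in sh_control; of the 4 tested KRT17 rose (1.44) and TRIM29 fell (-0.41), a call lost when any 1 of the 6 libraries was left out. General epithelial markers summed to 1155 to 1387 FPKM in OE_control and 1258 to 1535 FPKM in sh_control, with EPCAM at 0, and 0 of 3 tested passed by limma.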

How the data were processed

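FPKM values per gene and per transcript were deposited by the authors for all 12 libraries. The authors' tools, per the submitters' processing notes, were HISAT2, StringTie, Cuffdiff and edgeR. The sources used here give neither their versions and roles nor the build, annotation or strand setting. FPKM divides by transcript length and library total, so a few abundant RNAs can move every other value. Of low values 26.4% to 29.2% were whole steps within 1%, too few to recover reads, and a count test was not used.

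Genes that code for protein, with a 12-library mean of 1 FPKM or more, were tested on log2(FPKM + 1) with limma 3.58.1 in R 4.3.3, with 1 model of 4 groups, 8 residual degrees of freedom and a trended prior variance. Adjusted p-values are Benjamini-Hochberg over 10925 genes. SE is the moderated standard error. The code was tested on simulated data. The members and the gene lists were chosen with earlier results of these data known. Named by rule were IFI6, the 12 largest rises and 12 largest falls that passed with no overlap of the groups, up to 6 passing members of smallest p per list, 1 further member per list that did not pass, and a fixed set of stress, interferon and growth genes. KIF23, OAS1 and RPL6 were not analysed here. Alternatives were another pseudocount (0.1), no filter or a minimum of 5 FPKM, scaling by median of ratios, quantile normalization, no trend, a robust prior, a fit of only the 6 libraries, a replicate block, all annotated genes, a threshold of 1 on the log2 fold change, each library left out, and, chosen after seeing the data, a lowess correction for GC content and length (span 0.3). Promoters were the first RefSeq entry per gene (GRCh38.p14), matched for 8936 of the 10925 genes. Some listed genes are not reported here by name.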

Additional observations from a re-analysis of the deposited data

How the results depend on the processing

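The call total of 822 between OE_control and sh_control was 429 (175 higher, 254 lower) with only those 6 libraries in the fit, 98 (46 and 52) with a threshold of 1 on the log2 fold change, and 1314 (747 and 567) with the GC and length correction. Median-of-ratios scaling gave 838 calls (480 higher, 358 lower) and quantile normalization 708 (378 and 330). Leaving out 1 library gave 319 to 769 calls, 140 to 253 higher and 179 to 516 lower. With 1 library left out the fit also holds fewer libraries, and the cause of the lower counts was not tested. Of the listed genes 167 passed, against 105 with only 6 libraries, 37 with the fold threshold, 255 with the GC and length correction and 90 to 148 with 1 library left out. For OE_IFI6 against sh_IFI6 the 4 calls were 2 without a filter, with a minimum of 5 FPKM, with median-of-ratios scaling, with only 6 libraries and with the replicate block, and 2 to 5 with 1 library left out. For named genes the leading transcript's share differed by over 20 percentage points in 26 of 234, and in 15 with each group's own leading transcript.

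Labels do not say what a replicate number marks, so same-numbered libraries were not taken as pairs. Their deviations from the group means correlated at 0.197, 0.0138 and 0.123. Each of the 3 OE_control libraries correlated best with the sh_control library of its own number, and a shared effect of the number was not tested. With the replicate block 776 genes passed (278 higher, 498 lower). Over the settings, named genes that passed kept their call in 2409 values and lost it in 580, those that had not passed stayed so in 1082 and gained a call in 92, and 0 calls changed direction. Of the 46 gene lists, the count of rises went up by over 1.5 times in 23 with the GC and length correction and in 9 with median-of-ratios scaling. The count of falls went up as much in 6 and 0 lists and down as much in 2 and 7. With only the 6 libraries fitted, rises went down as much in 14 lists and up in 0, and falls down in 16 and up in 1. With 1 library left out, rises went down as much in 7 to 17 lists and up in 0 to 4. Falls then went down in 6 to 18 and up in 0 to 4. How many fragments stand behind genes near 1 FPKM is not known, since depth in reads is not given.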

Other observations

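Further gene groups are given here. Over all tested genes 2.75% rose and 4.78% fell. Among these groups the rises ran from 0% of translation initiation genes to 12.2% of autophagy and lysosome genes. The falls ran from 0% of autophagy and lysosome genes to 9.80% of replication-dependent histone genes. Of 77 tested cytosolic ribosomal protein genes 1 rose and 1 fell, with a median of 0.02. Of these genes 0 rose without OE_control 1 or any 1 sh_control library and 3 without OE_control 2, and 2 fell without OE_control 1 or OE_control 3. The gene that fell was RPL34. It had 140.1, 97.2 and 123 FPKM in OE_control, against 263, 277 and 293 FPKM in sh_control (log2 fold change -1.21, SE 0.14, adjusted p = 0.000472). Of 41 genes of autophagy and lysosomes 5 rose and 0 fell (median 0.16), ATG14, a subunit of the autophagy-starting lipid kinase, at 24.2 to 28.7 FPKM in OE_control, against 15.5 to 17.7 FPKM in sh_control (log2 0.68, adjusted p = 0.00357); the count was 3 without OE_control 2 or sh_control 1, 2 without OE_control 3 or sh_control 3 and 1 without sh_control 2. Of 37 proteasome subunits 2 rose and 0 fell (median 0.17), PSMD14 and PSMD7, and 0 rose without sh_control 2.

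Of 51 tested replication-dependent histone genes 5 fell and 3 rose (median -0.21). HIST2H2BE had 6.91, 7.23 and 7.50 FPKM in OE_control, against 13.0, 14.3 and 10.6 FPKM in sh_control (log2 -0.72, adjusted p = 0.00736), and HIST1H2BC had 837, 651 and 759 FPKM in OE_control, against 537, 499 and 497 FPKM in sh_control (log2 0.54, adjusted p = 0.0137). With median-of-ratios scaling 1 fell and 3 rose, and without sh_control 2 or sh_control 3 there was 1 fall and 0 rises. Of 37 splicing regulators 1 rose and 2 fell: the kinase CLK1 rose (0.55), a call kept without OE_control 3 and lost without any other 1 library, and HNRNPC and RBMX fell by 0.84 and 0.83. Of 22 genes of NF-kB signalling 2 rose, RELB (0.67) and RELA (0.55), and 1 when any 1 library other than OE_control 1 was left out; NFKB2 had 37.0 to 44.7 FPKM in OE_control, against 32.6 to 37.2 FPKM in sh_control (adjusted p = 0.286). KRT17, a stress keratin, had 4.10, 4.07 and 2.76 FPKM in OE_control, against 0.589, 0.698 and 0.790 FPKM in sh_control (log2 fold change 1.44, SE 0.19, adjusted p = 0.00115), and coding transcripts held 49.5% of its FPKM in OE_control, against 3.50% in sh_control. Of 34 translation initiation genes 0 rose and 1 fell, and of 25 actin genes PFN1 and PFN2 rose and 0 fell; 0 actin genes rose without sh_control 1, and 1 did without any other 1 library. Of 24 hypoxia-inducible genes ADM and ANKRD37 rose and BNIP3L and EGLN1 fell. Their rises numbered 5 with median-of-ratios scaling, 4 with a minimum of 5 FPKM, a robust prior or without OE_control 3, and 8 with the GC and length correction. Of 23 glycolysis genes SLC2A3 and PGAM1 rose and HK2 and PFKFB4 fell. Here 5 rose with median-of-ratios scaling or the GC and length correction and 1 without OE_control 1, OE_control 3, sh_control 2 or sh_control 3, and 0 fell without OE_control 1 or sh_control 3 and 1 without OE_control 3, sh_control 1 or sh_control 2.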
